A study of Mus musculus with 24 samples.

Results

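The microRNAs (miRNAs) of intact mouse liver were described from 3 arrays of fresh liver RNA that kept its small RNAs and was digested with DNase. A miRNA was included when the scanner software flagged it as detected on all 3 arrays, which held for 272 of the 1881 mouse miRNAs on the array. A further 31 miRNAs were detected on 2 of the 3 arrays, 18 on 1 array and 1560 on none. The livers came from 3 male mice, numbered 7, 10 and 9 in the labels (replicates 1, 2 and 3), and the strain of these animals is not given in the sources used here. Each liver was divided, so that every preparation of a mouse is a separate piece of 1 organ. The fresh pieces went into RNAlater at once (0 h) and were extracted with the miRNeasy Kit, which retains small RNAs, with on-column DNase digestion. The same 3 livers gave the arrays that were set beside them. These were fresh RNA extracted the same way without DNase, RNA from a piece stored for 96 h at room temperature and extracted with DNase, and fresh RNA extracted with the RNeasy Kit and DNase, which depletes small RNAs but does not remove them fully. All 4 preparations had 3 arrays each. The RNA integrity number, high for intact and low for degraded RNA, was 9.0 in mouse 7 and 8.9 in mice 10 and 9 in the fresh DNase-treated RNA, 8.8 in each mouse without DNase, 9.2 to 9.4 in depleted RNA and 2.3 to 2.4 after storage.

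A miRNA is cut from a hairpin precursor, whose stem gives a product from its 5' side (5p) and one from its 3' side (3p). Usually 1 of the arms is loaded into an Argonaute protein as the guide strand and the other is lost. The guide finds its target transcripts mainly through the seed, bases 2 to 8, so that miRNAs with the same seed are grouped as a family. In liver, miR-122-5p is the textbook hepatocyte miRNA, and miR-192-5p and miR-22-3p are other miRNAs known to be abundant there.

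The mature sequences of the brightest miRNAs are shown first because their seeds define the families described here. They were taken from RefSeq (table of build GRCm38.p6), which gave a sequence used here for 236 of the 272 miRNAs. Capitals mark the seed.
mmu-miR-6366: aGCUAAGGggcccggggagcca
mmu-miR-3963: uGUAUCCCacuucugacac
mmu-miR-3968: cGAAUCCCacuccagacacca
mmu-miR-5100: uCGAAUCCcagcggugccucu
mmu-miR-21a-5p: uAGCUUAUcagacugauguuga
mmu-let-7f-5p: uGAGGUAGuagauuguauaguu
mmu-miR-192-5p: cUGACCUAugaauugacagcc
mmu-let-7a-5p: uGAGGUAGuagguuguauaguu
mmu-miR-22-3p: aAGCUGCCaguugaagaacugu
mmu-miR-29a-3p: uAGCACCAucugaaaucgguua
These 10 sequences carry 9 different seeds, since let-7f-5p and let-7a-5p share theirs. miR-122-5p, the remaining miRNA among the brightest, is given by name.

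Signal here means the total gene signal, a background-subtracted fluorescence that the scanner software combines from all probes of a miRNA. Each miRNA is read by its own probes, so a share or rank orders fluorescence and not numbers of molecules. The summed signal of the 272 miRNAs was 55210 units in mouse 7, 109258 in mouse 10 and 92200 in mouse 9. The array of mouse 7 was thus the dimmest. A share of the sum of its own array needs no scaling between arrays, and the 272 miRNAs held 99.9% of the summed signal of all miRNAs detected on each of the 3 arrays. Across the 272 miRNAs the mean signal ran from 1.32 units for miR-193a-5p to 33946 units for miR-6366, a 25676-fold range, with a median of 10.09. No spot was saturated on any of the 12 arrays.

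Signal was concentrated in very few miRNAs. On each of the 3 arrays, 2 miRNAs were enough for 50% of the signal of all detected miRNAs. Reaching 90% took 21 miRNAs in mouse 7, 17 in mouse 10 and 15 in mouse 9, and reaching 99% took 121 to 141. The 10 brightest held 84.4% of the signal of the 272 miRNAs in mouse 7, 86.7% in mouse 10 and 87.2% in mouse 9 (mean 86.1%, n = 3). Only 6 miRNAs had a mean share of at least 1%, and together they held 82.4%. At the other end, 229 miRNAs had a mean share below 0.1% each and held 4.19% together.

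**Figure D1:**
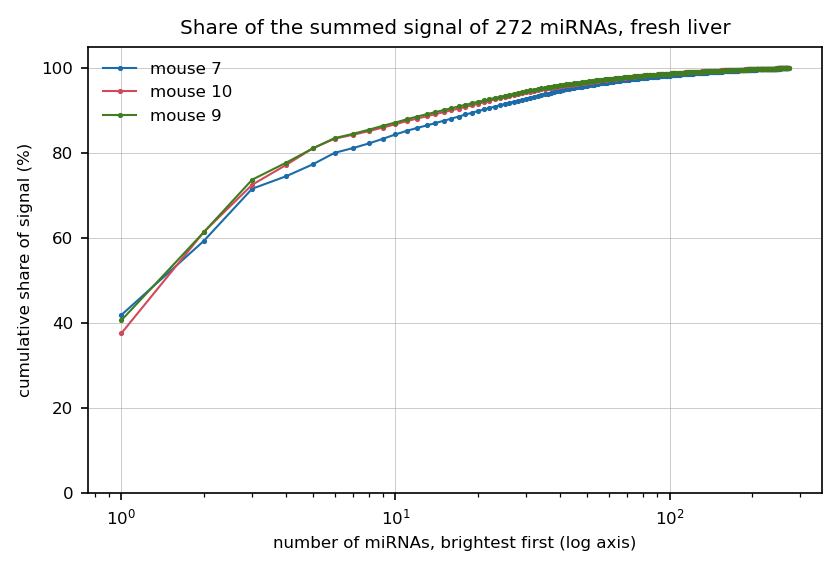
Cumulative share of the summed signal (vertical axis, percent) against the number of miRNAs counted from the brightest down (horizontal axis, log scale) for the 3 fresh DNase-treated arrays, with 1 line per mouse over 272 miRNAs. The lines pass 80% within the first 10 miRNAs and differ between mice by a few percent.

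miR-6366 gave the highest signal on every array, with 23166 units in mouse 7, 41139.9 in mouse 10 and 37532 in mouse 9. Its share was 42.0% in mouse 7, 37.7% in mouse 10 and 40.7% in mouse 9 (40.1% ± 2.21, SD, n = 3). Next was miR-3963, with shares of 17.4%, 23.8% and 20.7% in mice 7, 10 and 9 (20.7% ± 3.20, SD, n = 3). Both have a high number in their name, as miRNAs named late do, and no role of either is stated here. The hepatocyte miRNA miR-122-5p held rank 3 on all 3 arrays, at 6767, 12125 and 11368 units in mice 7, 10 and 9. Its share was 12.3% in mouse 7, 11.1% in mouse 10 and 12.3% in mouse 9 (11.9% ± 0.691, SD, n = 3). The order of the 3 leading miRNAs was therefore the same in each mouse, with shares that did not overlap.

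Below the leading 3, miR-3968 held 3.90% ± 0.871, miR-5100 held 3.31% ± 0.606 and miR-21a-5p held 2.48% ± 0.281 (SD, n = 3 each). miR-21a-5p, the mouse form of a miRNA expressed in most cell types, held rank 5 in mouse 7 and rank 6 in mice 10 and 9, where miR-5100 stood above it. Ranks 7 to 11 were held by let-7f-5p (0.995% ± 0.0843), miR-192-5p (0.965% ± 0.179), let-7a-5p (0.938% ± 0.0863), miR-22-3p (0.871% ± 0.190) and miR-29a-3p (0.815% ± 0.0442). Within each mouse let-7f-5p was above let-7a-5p and let-7a-5p above miR-29a-3p, and miR-192-5p was above miR-22-3p. Both let-7 miRNAs had shares of at least 0.861%, above the highest share of miR-29a-3p (0.848%), while the shares of miR-192-5p (0.770% to 1.12%) and miR-22-3p (0.758% to 1.09%) overlapped those of the other 3.

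The remaining places among the 20 brightest went to let-7c-5p, let-7g-5p, miR-494-3p, miR-26a-5p, let-7b-5p, miR-126a-3p, miR-194-5p, miR-30a-5p and miR-29c-3p, with mean shares from 0.622% down to 0.376%. The shares of neighbours in this stretch overlapped between mice, although some kept their order within each mouse. let-7c-5p was brighter than let-7g-5p in each, with signals of 376, 591 and 592 units against 320, 512 and 507 units for let-7g-5p in mice 7, 10 and 9. Of the 20 brightest, miR-494-3p had the widest coefficient of variation of its share (26.4%), with 314 units in mouse 7, 639 in mouse 10 and 321 in mouse 9. Of the 20 brightest miRNAs by array, 18 were common to all 3 arrays and 17 to all 6 fresh arrays with and without DNase.

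**Figure D2:**
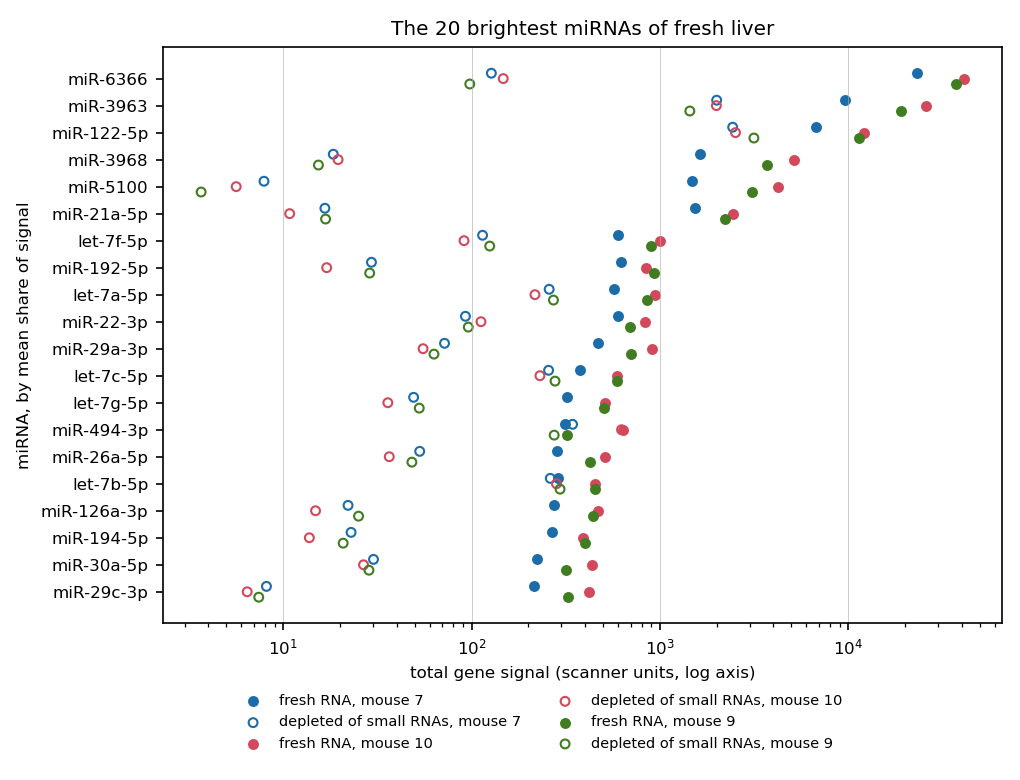
Total gene signal (horizontal axis, scanner units, log scale) of the 20 miRNAs with the highest mean share in fresh DNase-treated liver RNA, ordered by that share, with filled points for the 3 fresh arrays and open points for the 3 arrays of RNA depleted of small RNAs, coloured by mouse. miR-6366 falls from 23166 to 41139.9 units in fresh RNA to 97.9 to 147 units in depleted RNA, and miR-494-3p stays between 275 and 639 units in both.

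How far the order carried over between animals was described over the 272 miRNAs. Spearman's correlation of the shares was 0.937 between mice 7 and 10, 0.962 between mice 7 and 9 and 0.965 between mice 10 and 9. It was 0.946 to 0.974 between the arrays with and without DNase of 1 mouse. The miRNAs are not independent replicates, and each pair of arrays from 1 mouse also shares a slide. The coefficient of variation of a share over the 3 mice had a median of 21.6%, against a median of 10.9% for the scanner error of a single signal. It was 11.97% for the 50 brightest and 30.6% for the 50 dimmest miRNAs. In 56 miRNAs the spread between mice was smaller than the scanner error. Different probes of the same miRNA gave signals that differed by a median of 1.65-fold, and by at least 2-fold in 102 miRNAs. For miR-3968 the probes differed 20.5-fold and for miR-5100 8.12-fold, so the levels of both depend on which probe is read.

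At the edge of detection the miRNAs just inside were miR-193a-5p, with 0.829, 0.959 and 2.18 units in mice 7, 10 and 9, miR-7009-5p (1.43 to 1.48 units) and miR-706 (1.17 to 1.85 units). The brightest just outside were miR-5121, which was not detected in mouse 7 and gave 24.2 units in mouse 10 and 2.06 in mouse 9, and miR-142a-5p and miR-7671-3p, which were also not detected in mouse 7. Here the brighter of the excluded miRNAs exceeded the dimmest included ones, since the flag and not a level set the limit.

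Markers of the liver and of other tissues were read next. All 3 hepatocyte miRNAs were detected and together held 12.6% to 14.5% of the signal. Of the 4 erythroid miRNAs, 3 were detected, at 0.354% to 0.406% together, nearly all of it from miR-451a, which is abundant in red blood cells, with 217 units in mouse 7, 401 in mouse 10 and 312 in mouse 9. Its cluster partner miR-144-3p gave 5.70, 22.2 and 9.23 units in mice 7, 10 and 9, and miR-144-5p was not detected on any array. The endothelial miRNA miR-126a-3p gave 273 units in mouse 7, 471 in mouse 10 and 439 in mouse 9, and the endothelial list (2 of 2 detected) held 0.455% to 0.523%. Of 7 leukocyte miRNAs, 4 were detected on all 3 arrays, led by miR-142a-3p (18.5, 61.4 and 30.3 units in mice 7, 10 and 9) and miR-223-3p of myeloid cells (22.95, 45.2 and 29.5 units), and miR-155-5p was detected on none. Of 6 stromal miRNAs 5 were detected, at 0.0689% to 0.108% together, and of 5 biliary epithelial miRNAs 2 were detected, miR-200a-3p and miR-200b-3p, with 2.48 to 5.06 units. None of the 4 muscle, 4 neural, 3 pancreas or 4 pluripotent cell miRNAs, such as miR-1a-3p and miR-124-3p, was detected on any of the 3 arrays. In whole liver, fewer cells of a type and less of a miRNA per cell cannot be told apart.

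A list of 18 miRNAs known to be abundant or studied in liver had 17 detected on all 3 arrays, and these held 19.4% to 22.4% of the signal. The exception was miR-33-5p, encoded in an intron of Srebf2 and known for its part in cholesterol export, which was detected in mouse 10 alone, at 2.43 units. Their levels nevertheless spanned a wide range, from miR-122-5p at rank 3 to miR-34a-5p, a target of p53, with 9.69 units in mouse 7, 32.9 in mouse 10 and 15.4 in mouse 9. miR-148a-3p gave 175, 402 and 267 units and miR-101a-3p 42.1, 77.3 and 56.9 units in mice 7, 10 and 9. Each of these last 3 miRNAs was brightest in mouse 10 and dimmest in mouse 7, as was the summed signal.

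miRNAs of groups known to share a transcript gave unequal signals. Several have more than 1 hairpin gene in RefSeq, among them miR-194-5p, miR-19b-3p, let-7c-5p and miR-125b-5p. Their signals need not come from 1 transcript. Of miR-192 and miR-194, miR-192-5p had a mean of 796 units and miR-194-5p 353 units, with the former brighter in each mouse. miR-192-3p gave 5.16 to 9.29 units, and the 3p arms of both miR-194 hairpins were not detected. In the miR-17-92 group, which is known for its role in cell growth, 5 of 7 miRNAs were detected on all 3 arrays, from miR-19b-3p with a mean of 104 units down to miR-17-3p with 3.45. miR-17-5p was detected in mouse 10 alone, and miR-18a-5p on no array. The 3 miRNAs of the related miR-106b-25 group lay close together, with means of 26.0 units for miR-106b-5p, 27.9 for miR-93-5p and 29.4 for miR-25-3p, whose ranges overlapped between mice although their order was the same in each mouse. All 5 miRNAs of the miR-23/27/24 groups were detected at means of 74.4 to 155 units, and all 6 of the groups that hold miR-99, let-7c and miR-125b, from let-7c-5p at rank 12 to miR-99b-5p at rank 182.

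Families were formed by the shared seed of the 236 miRNAs with a sequence. There were 202 families, of which 185 had 1 member and 17 had more, with 51 members in the latter that held 9.14% of the signal. miR-122-5p, at rank 3 of all miRNAs, was not among the 236 and is missing from this order, and the 36 miRNAs without a sequence used here held 13.01% of the signal. The leading families were miR-6366 and miR-3963, each alone in its family. Next came the let-7 family, a group known to hold back cell growth and to rise as tissues mature, with 9 of the 11 miRNAs on the array that have its seed detected. It held 4.33% of the signal in mouse 7, 3.59% in mouse 10 and 3.97% in mouse 9 (3.97% ± 0.368, SD, n = 3). miR-3968, miR-5100 and miR-21a-5p followed, each as the single member of its family.

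The let-7 family is shown because its members share the seed and differ by few bases elsewhere, while their signals differ. Capitals mark the seed.
mmu-let-7f-5p: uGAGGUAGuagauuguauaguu
mmu-let-7a-5p: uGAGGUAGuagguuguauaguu
mmu-let-7c-5p: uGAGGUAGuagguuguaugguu
mmu-let-7g-5p: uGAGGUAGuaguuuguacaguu
mmu-let-7b-5p: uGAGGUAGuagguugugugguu
mmu-let-7d-5p: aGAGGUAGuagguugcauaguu
mmu-let-7i-5p: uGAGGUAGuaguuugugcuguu
Their mean shares fell from 0.995% for let-7f-5p through 0.261% for let-7d-5p to 0.0917% ± 0.00503 (SD, n = 3) for let-7i-5p. let-7e-5p (0.0330%) and miR-98-5p (0.0159%) were dimmer still. The leading let-7f-5p held 25.1% of the signal of its family. Probes for such similar sequences can read each other's targets, and how much of each signal came from another member was not tested.

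The miR-29 family, whose targets include collagen transcripts, held 1.45% ± 0.0961 (SD, n = 3) with 3 of 3 members detected, 56.1% of it from miR-29a-3p. In each mouse the order was miR-29a-3p, miR-29c-3p and miR-29b-3p, with 129, 353 and 213 units for miR-29b-3p in mice 7, 10 and 9. miR-192-5p was the single detected member of its family and held 0.965%. Further down, the miR-30 family had 3 members detected of the 4 with a sequence used here, at 0.756% ± 0.0518 (SD, n = 3). miR-30b-5p and miR-30d-5p, detected at means of 141 and 39.6 units, had no sequence used here and are not counted. By name alone, 8 detected miR-30 miRNAs of both arms held 1.02%. The miR-26 family had 2 of 2 members detected at 0.718% to 0.781%, and the miR-15/16 family 6 of 10 at 0.633% ± 0.0773 (SD, n = 3).

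Sequences that share letters without sharing the seed were also looked for. Of 27651 pairs of the 236 miRNAs with different seeds, 189 (0.684%) shared a run of at least 8 bases. Among the 20 brightest there were 160 such pairs, of which 2 shared a run that long, and both contained miR-3968. They are shown with the shared run in capitals, first for miR-3968 with miR-5100 (9 bases) and then for miR-3963 with miR-3968 (8 bases).
mmu-miR-3968: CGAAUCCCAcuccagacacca
mmu-miR-5100: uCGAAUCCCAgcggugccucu
mmu-miR-3963: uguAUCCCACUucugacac
mmu-miR-3968: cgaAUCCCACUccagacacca
These 3 miRNAs held ranks 2, 4 and 5 by mean share. Whether 1 RNA gave signal on the probes of more than 1 of them was not tested.

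The share of bases that are G or C differed little between detected and undetected miRNAs, with a median of 52.4% over the 236 miRNAs and 52.2% over 1332 miRNAs detected on none of the 3 arrays. Within the 236, the Spearman correlation between GC content and mean log2 signal was -0.284, a weak relation across miRNAs given as a description. miR-6366 stood against it with 72.7% GC.

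The number in the name of a miRNA rises broadly with the time of its naming. Of the 373 miRNAs with a number below 300 (let-7 included), 109 were detected (29.2%), against 49 of 446 (11.0%) from 300 to below 1000, 15 of 126 (11.9%) from 1000 to below 3000, and 99 of 936 (10.6%) from 3000 up. Signal was divided otherwise. The 99 detected miRNAs numbered from 3000 held 67.5% to 71.6% of the signal, and the 109 numbered below 300 held 26.3% to 30.0%. Nearly all of the former came from miR-6366, miR-3963, miR-3968 and miR-5100, which held 68.0% ± 2.62 (SD, n = 3), while the other 95 held 1.83% ± 0.532. The brightest of these 95 was miR-8117, with a mean of 135 units. Among the miRNAs numbered below 3000 alone, miR-122-5p held 37.7% of the signal in mouse 7, 39.1% in mouse 10 and 41.5% in mouse 9, and miR-21a-5p 8.59%, 7.91% and 8.12%.

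RNA depleted of small RNAs, from the same 3 livers, was measured in the same way. The 272 miRNAs summed to 8279 to 9499 units there, and 202.7 ± 23.9 miRNAs (SD, n = 3) were flagged as detected per array against 298.7 ± 12.1 in fresh RNA. The mean differed by 96 miRNAs, and the groups did not overlap. A two-sided exact permutation test, with the arrays taken as unpaired, gave p = 0.10, the smallest p that 3 arrays against 3 allow. Of the 272 miRNAs, 74 were detected on no depleted array, so that their depleted level is only known to lie below detection. In 102 miRNAs the depleted signal was below 10% of the fresh signal, and in 109 it was at least 50%. The 74 undetected miRNAs entered at the listed 0.1 units and all count among the 102, so the size of their fall is not known.

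The brightest miRNAs fell unevenly. miR-5100 kept 0.195% of its fresh signal, miR-6366 0.366%, miR-3968 0.509% and miR-21a-5p 0.712%. miR-3963 kept 9.93%, with 2003 units in mouse 7, 1996 in mouse 10 and 1442 in mouse 9. miR-122-5p kept 26.8%, with 2436, 2521 and 3157 units, and became the brightest miRNA on all 3 depleted arrays, at 30.6% of their detected signal (± 6.47, SD, n = 3) against 11.9% ± 0.693 in fresh RNA (exact permutation test, p = 0.10). miR-494-3p kept 97.7%, with 344 units in mouse 7, 626 in mouse 10 and 275 in mouse 9, close to its fresh value in each mouse.

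Within the let-7 family the part left in depleted RNA ran from 10.3% for let-7g-5p and 13.2% for let-7f-5p through 31.7% for let-7a-5p and 49.1% for let-7c-5p to 70.3% for let-7b-5p. In mouse 7 these 5 miRNAs kept, in the same order, 15.4%, 19.1%, 45.4%, 68.2% and 90.5%. In mouse 10 they kept 7.02%, 9.07%, 23.1%, 39.1% and 62.4%, and in mouse 9 10.4%, 13.9%, 32.0%, 46.9% and 65.3%, so that the order was the same in each mouse. In the miR-29 family miR-29a-3p kept 9.14% and miR-29c-3p 2.29%, and miR-29b-3p was detected on no depleted array. Of the miR-15/16 family miR-15b-5p kept 40.9% and miR-16-5p 5.59%. Members of 1 seed family thus differed in the signal that the depleted RNA gave relative to the fresh RNA.

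Among the detected miRNAs numbered from 3000, 66 of 99 gave at least 50% of their fresh signal in depleted RNA and 15 gave below 10%. Among those numbered below 300 the counts were 15 and 64 of 109. The median of the percentage left was 81.2% in the former and 5.44% in the latter class. These counts and medians take a miRNA detected on no depleted array at the listed 0.1 units. That held for 10 of the 99 and 43 of the 109. The median fresh signals of the classes also differed, at 5.95 and 26.0 units. The median signal of a detected miRNA was 6.06 to 7.99 units on a depleted array and 7.66 to 10.2 units on a fresh array. What part of a dim signal was background was not tested.

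**Figure D3:**
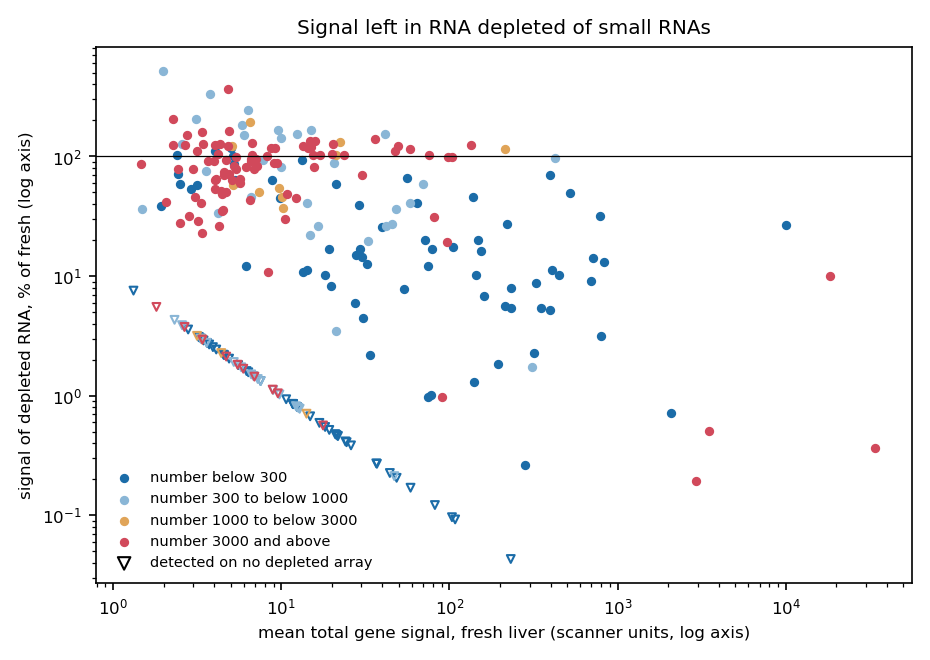
Mean signal on the 3 arrays of RNA depleted of small RNAs, in percent of the mean fresh signal (vertical axis, log scale), against the mean fresh signal in scanner units (horizontal axis, log scale), with 1 point for each of the 272 miRNAs, coloured by the number in its name. The 74 open triangles were detected on no depleted array and lie on a line because an undetected miRNA is listed at 0.1 units, and the horizontal line marks 100%, near which many miRNAs numbered from 3000 lie.

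The fresh arrays without DNase came from separate pieces of the same livers. Most of the 272 miRNAs were again detected there, while the share of miR-122-5p differed. Of the 272 miRNAs, 247 were also detected on all 3 arrays without DNase, and the number detected per array was 301 ± 36.3 against 298.7 ± 12.1 (SD, n = 3, exact permutation test, p = 0.90). miR-6366 was 2.47-fold higher without DNase in mouse 7, 1.57-fold in mouse 10 and 1.42-fold in mouse 9, and miR-5100 was 4.68-fold, 2.18-fold and 2.37-fold higher. miR-3963 was higher by 3.74-fold, 1.64-fold and 1.79-fold in mice 7, 10 and 9 and miR-3968 by 4.54-fold, 1.76-fold and 1.91-fold. For miR-122-5p the ratio was 1.21, 1.13 and 0.992 in the same order, and the median ratio over the 272 miRNAs was 1.19, 1.16 and 0.993. The share of miR-122-5p was accordingly lower without DNase, at 7.70% ± 1.31 against 11.9% ± 0.693 of the detected signal (SD, n = 3, exact permutation test, p = 0.10, with no overlap). The 10 brightest miRNAs of each array held 89.6% to 91.5% of its detected signal without DNase and 84.4% to 87.2% with it.

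After 96 h at room temperature, 642.7 ± 62.6 miRNAs were detected per array, and 210 of the 272 were detected on all 3 arrays. The 10 brightest miRNAs of each stored array held 51.3% to 58.5% of its detected signal. The 10 that were brightest in fresh liver, chosen on the fresh arrays, held 16.1% to 32.8% there, given without a test. miR-122-5p held 1.77% ± 1.13 against 11.9% ± 0.693 in fresh RNA (SD, n = 3, exact permutation test, p = 0.10, with no overlap). All of the 20 brightest fresh miRNAs were still detected on the 3 stored arrays, but only 5 of them stayed among the 20 brightest on each. miR-122-5p gave 3030 units in mouse 7, 6117 in mouse 10 and 3677 in mouse 9, and miR-494-3p gave 9695, 4728 and 10776 units.

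Arms were compared within hairpins. Arms were paired when their names were the same except for 5p or 3p. let-7f-1-3p and miR-30c-2-3p, whose names carry a copy number, were thus not paired with let-7f-5p and miR-30c-5p, although all were detected. Of the detected miRNAs, 71 had no partner arm by name, and 46 of these have no arm in their name. By this pairing there were 723 hairpins with both arms on the array. In 543 of them neither arm was detected on all 3 fresh arrays. In 159 hairpins 1 arm was, the 5p arm in 85 and the 3p arm in 74, and in 150 of these the other arm was detected on none of the 3 arrays. The brightest such hairpins were miR-21a (5p, mean 2072 units), miR-29a (3p, 695 units), let-7g (5p, 446 units), miR-494 (3p, 425 units) and miR-148a (3p, 281 units). Of these 5, only miR-21a had its other arm detected, on 1 array. The remaining 21 hairpins had both arms detected on all 3 arrays. Because the arms are read by different probes, a ratio between them orders signals and was not tested.

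Among the 21 hairpins, 11 had a 5p arm and 8 a 3p arm at least 2-fold brighter on every array, and 2 had neither. The absolute log2 ratio had a median of 2.97, and the SD of the ratio over the mice a median of 0.184. Of these 21, miR-122 stood furthest toward the 5p arm. Its log2 ratio was 6.99 in mouse 7, 7.06 in mouse 10 and 7.13 in mouse 9 (134-fold). Its 3p arm was itself well measured at 53.1, 90.8 and 81.0 units. miR-122 was followed by miR-192 (6.75 ± 0.141), let-7b (6.23 ± 0.443), miR-30a (3.91 ± 0.184) and miR-7047 (3.33 ± 0.0842). let-7f, not paired by name, has no place in this order, and its ratio was not computed. let-7f-5p held 25.1% of the 3.97% of its seed family. The seed family of let-7f-1-3p and let-7b-3p held 0.0134%. Toward the 3p arm stood miR-193a (-6.48 ± 0.574), miR-29c (-6.39 ± 0.255), miR-22 (-5.42 ± 0.152), miR-126a (-4.17 ± 0.0879) and miR-378a (-3.05 ± 0.0536, SD, n = 3 for each value). The dominant arm of each of the marker hairpins, 5p of miR-122 and miR-192 and 3p of miR-22 and miR-126a, was thus the same in every mouse.

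Nearest to equal arms were miR-140, with a log2 ratio of -0.64 in mouse 7, -0.69 in mouse 10 and -0.56 in mouse 9, miR-139 (0.73, 1.39 and 1.61) and miR-199a (-1.66, -1.50 and -1.44). The spread was widest for miR-125a, with ratios of 1.53 in mouse 7, 3.72 in mouse 10 and 2.57 in mouse 9, where the 3p arm gave 2.58 to 3.81 units. Over the hairpins paired by name, 5p arms held 19.8% ± 1.44 of the signal of the 272 miRNAs and 3p arms 5.45% ± 0.576 (SD, n = 3). miR-122-5p alone gave 11.9% of the signal within the 5p sum. The 71 miRNAs with no partner arm by name are not in these sums.

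**Figure D4:**
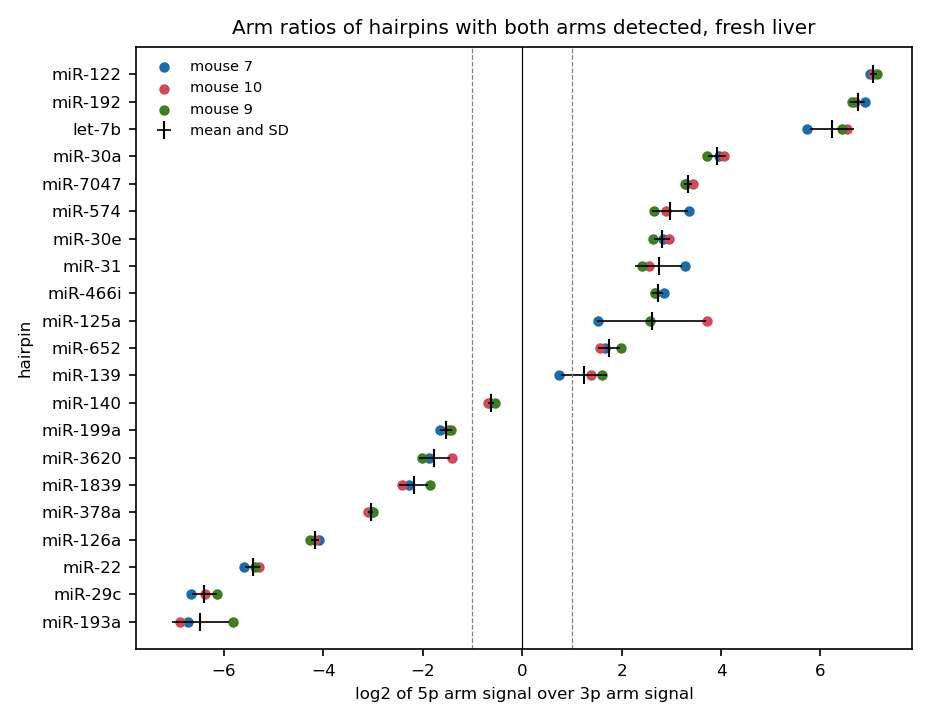
Log2 of the 5p signal over the 3p signal (horizontal axis) for the 21 hairpins with both arms detected on all 3 fresh DNase-treated arrays, with 1 coloured point per mouse and a black tick and bar for the mean and SD, and dashed lines at a 2-fold difference. Arms were paired by name. The ratios run from -6.48 for miR-193a to 7.06 for miR-122. The points of 1 hairpin lie close together, with the widest spread for miR-125a.

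The ratio of the arms within a hairpin was then compared between preparations. A constant factor of a probe cancels there, but background and other RNA read by a probe do not. The hairpins tested were paired by name and had both arms detected on all 6 arrays of a comparison. Hairpins with a lost arm could therefore not enter. Without DNase, 20 hairpins could be tested and none passed, which is 0.0% called (limma, adjusted p under 0.05). At an unadjusted p under 0.05 there were 4. The smallest adjusted p was 0.0656, for miR-30e, whose log2 ratio was 2.81 with and 3.35 without DNase (a difference of 0.54, SE 0.127) and was higher without DNase in 3 of 3 mice. With the mouse as a replicate block miR-30e was called (adjusted p = 0.0128). For miR-122 the ratio was 7.06 with and 7.27 without DNase, a difference of 0.21 (SE 0.0612, adjusted p = 0.0656).

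After storage, 7 hairpins kept both arms on all 6 arrays and 6 were called (85.7%). The ratio rose in 5 of them. miR-3620 went from -1.77 to 5.02 (a change of 6.79, SE 0.533, adjusted p = 1.29e-12). The brighter arm was thus 3p in fresh and 5p in stored RNA in all 3 mice. Its mean 5p signal was 2.43 units in fresh and 852 units in stored RNA, and its 3p signal 8.20 and 23.5 units. The fresh ratio of miR-3620 therefore rests on 2 dim arms. miR-7047 rose by 5.11 (SE 0.309), miR-466i by 2.58 (SE 0.294), miR-574 by 1.74 (SE 0.489) and miR-122 by 1.07 (SE 0.293, adjusted p = 0.00154). The call of miR-122 was lost without mouse 7 (adjusted p = 0.120) and without mouse 9 (adjusted p = 0.0692), and with a normexp background its difference turned to -0.34 (adjusted p = 0.109). With that background the change was 3.89 for miR-3620, 3.78 for miR-466i, 3.06 for miR-574, 5.71 for miR-7047 and -1.57 for let-7b, each still called. In miR-7047 the mean 5p signal was 49.6 units in fresh and 7384 units in stored RNA, and the 3p signal 4.91 and 19.8 units. In miR-122 both arms were dimmer after storage, 5p at 10087 and 4275 units and 3p at 17.2 units after storage. let-7b fell by 2.52 (SE 0.380, adjusted p = 5.78e-07), with its 5p arm at 398 units in fresh and 173 units in stored RNA and its 3p arm at 5.19 and 11.6 units. miR-126a was not called (a difference of 0.57, adjusted p = 0.152). With 7 hairpins the variance shared across features rests on few of them, and the exact rank test of the study's methods called none, since its smallest p with 3 arrays against 3 is 0.10.

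In depleted RNA 5 hairpins could be tested and 3 were called (60.0%), each with a lower ratio. All 5 were lower in 3 of 3 mice, the 2 that were not called included. miR-574 fell by 1.75 (SE 0.367, adjusted p = 0.000692), with 1.97 units of its 3p arm in fresh and 10.15 in depleted RNA. miR-139 fell by 1.34 (SE 0.501) and miR-466i by 0.77 (SE 0.276, adjusted p = 0.0254 for both). For let-7b (6.23 in fresh and 5.77 in depleted RNA) and miR-7047 (3.33 and 2.87) the adjusted p was 0.120 and 0.139. With the mouse as a replicate block miR-574 alone was called (adjusted p = 0.0196), and without mouse 7 or without mouse 9 none was. With a normexp background none was called, and the differences of miR-574 and miR-466i were 0.04 and 0.10.

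**Figure D5:**
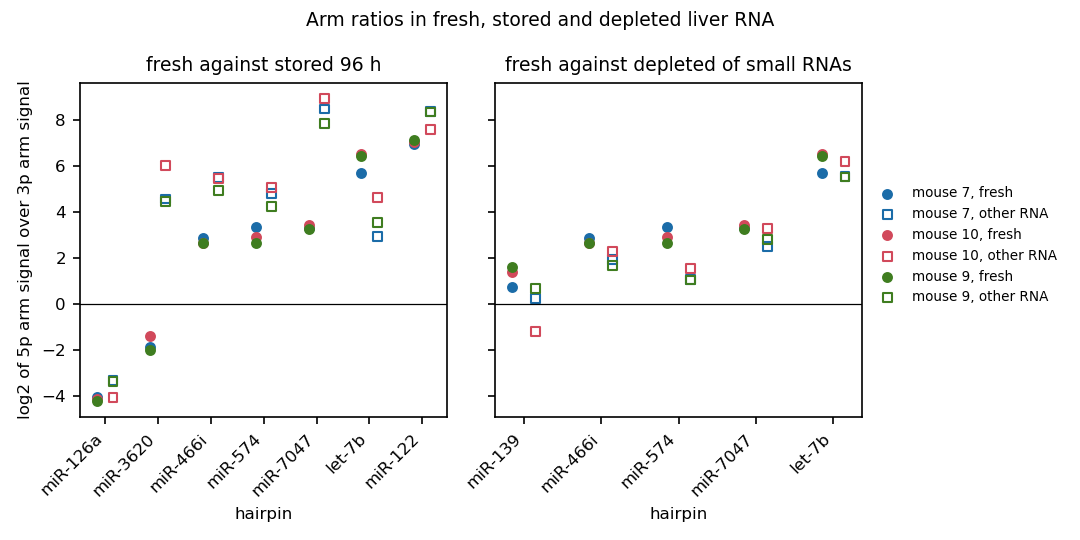
Log2 of the 5p signal over the 3p signal (vertical axis) for the hairpins with both arms detected on all 6 arrays, 7 for fresh against stored RNA (left) and 5 for fresh against depleted RNA (right), with filled circles for fresh and open squares for the other preparation, coloured by mouse. Arms were paired by name. miR-3620 crosses from -1.77 in fresh to 5.02 in stored RNA. miR-574 moves upward after storage and downward in depleted RNA.

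Whether single miRNAs differed between the mice was tested over the 6 fresh arrays, with and without DNase, on the log2 share of each array. All 247 miRNAs tested were among the 272. Of these, 13 (5.26%) passed (moderated F test of limma, DNase state as a covariate, adjusted p under 0.05). In 9 of the 13 the share was highest in mouse 7 and in 4 in mouse 10, and over all 247 it was highest in mouse 7 in 107, in mouse 10 in 89 and in mouse 9 in 51. The largest difference was in miR-3102-5p, with shares of 0.0397%, 0.0128% and 0.0119% in mice 7, 10 and 9 with DNase and 0.0200%, 0.00911% and 0.00700% without (3.08-fold between mice 7 and 9, adjusted p = 1.39e-06). miR-145a-5p, a miRNA of smooth muscle and other stromal cells, was highest in mouse 10 in both preparations, with 0.00785% against 0.00430% in mouse 7 and 0.00289% in mouse 9 with DNase (3.08-fold between mice 10 and 9, adjusted p = 0.0193). miR-6538, miR-211-3p and miR-455-3p differed 2.54-fold, 2.53-fold and 2.26-fold and were highest in mouse 7.

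The 4 calls that were highest in mouse 10 were miR-145a-5p, miR-143-3p, miR-34a-5p and miR-802-5p, which is expressed in liver. Both miR-145a-5p and miR-143-3p are made from 1 transcript and are on the stromal list, of which the other members were not called. Of the hepatocyte miRNAs none was called. The mouse with most of the highest shares, mouse 7, also had the dimmest DNase-treated array, and 6 of the 9 calls highest there were numbered from 3000, as were 60 of the 107 tested miRNAs highest there. Mouse, slide and scan are the same in these data and cannot be told apart. The count depended on single arrays, with 0 to 115 calls when 1 of the 6 arrays was left out. It was 115 without the array of mouse 7 with DNase, 112 without that of mouse 7 without DNase, 1 without either array of mouse 10 and 0 without either array of mouse 9. Scaling to the median in place of the sum gave 70 calls, among which were all 13.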

How the data were processed

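One-colour Agilent arrays carrying 1881 mouse miRNAs, each with 30 spots and 1 to 4 probes, were used from 12 samples, and 12 further arrays of the series were not used here. Per the file headers, the deposited intensity values were made by Agilent Feature Extraction 10.10.1.1, which subtracted background and combined the spots of a miRNA into a total gene signal with its error and a detection flag, and lists a miRNA that is not detected at 0.1. The authors also deposited log2 values, variance stabilized from the same signals, and these differed from a fitted arcsinh function of the total gene signal by at most 7.68e-06 and served as an alternative.

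The total gene signal was used without further background correction. It entered as a share of its array's sum or as a log2 ratio of the arms of a hairpin. The percentages left in depleted RNA and the ratios without DNase compared signals of different arrays without scaling. They therefore also carry differences in the brightness of whole arrays. Groups came from the sample labels. Arm ratios and differences between mice were tested with limma 3.58.1 (R 4.3.3) with a variance trend and Benjamini-Hochberg adjustment at 0.05. Single values were tested with exact permutation tests (scipy 1.17.1). All of these took the arrays as unpaired, although the groups come from the same livers. The fits were tested on simulated data. Named were the 20 brightest miRNAs, those at the edge of detection, the extreme and nearest-to-equal arm ratios, the called features with the largest change and the members of the lists. Members and lists were chosen with earlier results of these data known. Each mouse gave 1 piece of liver per preparation, so the number of arrays limits the precision, and mouse, slide and scan cannot be told apart.

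Same-numbered arrays are of 1 animal. Deviations from the group means of 125 miRNAs correlated at 0.499 to 0.694 between fresh arrays with and without DNase of 1 mouse. Between other preparations the mean correlation within a mouse ran from -0.288 (stored and depleted) to 0.239 (fresh DNase-treated and depleted). It was 0.077 between fresh and stored DNase-treated arrays, so the correlations show the pairing for the fresh preparations only. The normexp alternative used median spot signals and an offset of 50, since the files read here held no mean spot signal. Other alternatives changed the scaling, the spot summary, the detection rule, the arm fold, the variance trend, the test and the replicates. The RefSeq sequence tables were used for sequences and names of hairpin genes only, and no coordinates were used.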

Additional observations from a re-analysis of the deposited data

How the results depend on the processing

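The list of miRNAs held 303 when detection on 2 of 3 arrays was enough, 247 when detection without DNase was also required, and 273 to 293 with 1 mouse left out. The share of the 10 brightest was 85.6% to 87.0% and that of miR-122-5p 11.7% to 12.3% with 1 mouse left out, and with a normexp background they were 78.3% and 10.4%. The leading family held 39.2% to 41.3%. Hairpins with a brighter 5p arm numbered 11 or 12 with 1 mouse left out, 9 at 4-fold (5 for 3p), 5 with a normexp background (4 for 3p), and 9 of 14 (4 for 3p) when both arms had to lie above the lower quartile of signal.

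For arm ratios without DNase, the mouse as a replicate block gave 1 call, signal per spot, a normexp background and the deposited log2 values 2 each, detection on 2 of 3 arrays 1 of 25, and the exact rank test and leaving out 1 mouse 0. For stored RNA, detection on 2 of 3 arrays gave 10 of 12, the exact rank test 0, leaving out 1 mouse 5 to 7, and the replicate block the same 6. The normexp background turned the direction of miR-122 in stored RNA (-0.336). For depleted RNA, the replicate block gave 1 call, a normexp background 0, the exact rank test 0 and leaving out 1 mouse 0 to 2. The normexp background also turned the direction of miR-574 (0.043) and miR-466i (0.104), neither of which was called there. The rank test cannot go below 0.10 with 3 arrays against 3. The cause of the other shifts was not tested.

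The count of miRNAs that differed between mice moved most, from 13 to 70 scaled to the median, 92 to the 75th percentile and 138 with the deposited values, and to 0 with a normexp background, with 0 to 115 when 1 array was left out. All 13 remained under median and 75th percentile scaling and 11 with the deposited values. Of the values of single named miRNAs and hairpins under alternatives, 101 kept the call, 46 lost it, and 3, all of hairpins, reversed direction. Direction was compared for hairpins only, since the test between mice gives a range without a sign. Dim miRNAs limit these results, since the 50 dimmest had a median scanner error of 23.1%.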

Other observations

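Among the 173 detected miRNAs numbered below 3000, let-7f-5p held 3.34%, 3.25% and 3.29% of their summed signal in mice 7, 10 and 9, a narrower spread relative to its level than that of miR-192-5p (3.45%, 2.72% and 3.38%) or miR-22-3p (3.35%, 2.70% and 2.55%). On the stored arrays 95 of the 99 detected miRNAs numbered from 3000 were still detected on all 3, against 70 of the 109 numbered below 300. In depleted RNA the fresh miRNAs that were detected on no array numbered 10 of the 99 and 43 of the 109.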
